A study of Mus musculus with 32 samples.

Results

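The genes described are 34 integrin subunits and focal adhesion genes out of 20560 genes in the deposited table. They were chosen by name: every gene whose symbol is Itga or Itgb followed by a digit, with the binding protein genes named after Itgb1 and Itgb3 left out, which gave 12 alpha and 8 beta subunits, plus 14 named genes of the adhesion site (Vcl, Tln1, Tln2, Zyx, Pxn, Ptk2, Ilk, Parva, Lims1, Fermt2, Tns1, Bcar1, Actn1 and Actn4). Subunits with a letter in place of the digit, such as Itgav, fall outside that choice and are described with the related genes. RNA was sequenced from 3T3-L1 cells, an established mouse preadipocyte line that forms lipid-filled fat-like cells when given hormones. Cells carried a scramble control hairpin (shCtrl) or 1 of 2 short hairpin RNAs, shRNA 1 or shRNA 2, against Zbtb9, which encodes a zinc finger and BTB domain protein. Each of days 0, 3, 7 and 11 had 4 control libraries and 2 libraries of each shRNA, 32 in all, labelled as biological replicates of 1 cell line. All groups shared the same course: induction at day 0, 2 days after confluence, with insulin at 167 nM, IBMX (a phosphodiesterase inhibitor) at 0.5 mM and dexamethasone at 1 µM, insulin alone after day 3, and no addition after day 7.

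Integrins are receptors made of an alpha and a beta chain that join the extracellular matrix to the actin cytoskeleton. The alpha chain largely sets which matrix protein is bound: alpha 3, alpha 6 and alpha 7 pair with beta 1 to bind laminin, alpha 1, alpha 2, alpha 10 and alpha 11 with beta 1 to bind collagen, and alpha 5 with beta 1 to bind fibronectin. Talin and kindlin activate the receptor from inside the cell, the ILK, PINCH and parvin complex and actin linkers such as vinculin, alpha-actinin and zyxin tie it to actin, and focal adhesion kinase, paxillin and p130Cas carry its signals. When preadipocytes become fat cells they round up and rebuild their matrix from a fibronectin-rich to a laminin-rich one, and a shift from alpha 5 to alpha 6 has been described in this line.

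Depth ranged from 22280363 to 31073726 reads in genes per library, as rebuilt from the deposited log2 values, and levels below are normalized reads, meaning those reads after division by a size factor for each library. Changes are differences of the deposited log2 values with their standard error (SE) from limma, a linear model fitted over all genes tested, and "called" below means that the adjusted p of a gene was under 0.05. Zbtb9 itself was rare, with means of 14.2, 10.3, 16.8 and 15.5 normalized reads in control cells on days 0, 3, 7 and 11, and stood at 61.9%, 50.6%, 42.7% and 54.5% of those in knockdown cells. The arms overlapped at day 3, at 0.0 to 9.0 in knockdown and 6.3 to 12.6 in control libraries, and at day 11, where knockdown libraries were at 2.1 to 19.3 and the control range began at 12.1. Of the 10 adipocyte markers, 9 were tested and all 9 were higher in control cells at day 7 than at day 0. Knockdown cells had more of them than control cells, with 9, 9 and 8 of the 9 called higher on days 3, 7 and 11 beside 14.6%, 24.9% and 16.8% of all genes, and their summed level at day 7 was 49534 to 54024 in control libraries and 134628 to 203986 in knockdown libraries. Of the 9 preadipocyte or fibroblast markers, 4, 7 and 6 were called lower in the knockdown on days 3, 7 and 11, beside 12.1%, 22.6% and 16.2% of all genes, and 1, Dlk1, was called higher at day 3. Both marker lists move with the knockdown results that follow, and their part in those results was not tested. In bulk RNA, fewer cells of a type and less RNA per cell cannot be told apart. Of the 8 leukocyte markers, 5 were in the table, and their summed level at day 7 was 504.0 to 536.5 normalized reads in control and 357.2 to 504.5 in knockdown libraries. At day 11 it was 720.3 to 830.7 in control and 901.7 to 1049.2 in knockdown libraries. Ptprc was at or under 3 in every library, whereas Cd14 had the highest mean of the list in each arm on each day. In the knockdown Cd68 was called higher at days 7 and 11, Cd14 lower at days 3 and 7, and Lyz2 lower at day 7. The 4 epithelial markers summed to at most 26.1 and the 5 endothelial markers to at most 100.1.

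In control cells at day 0, levels per kilobase of exon put Itga5 and Itgb1, the 2 chains of the fibronectin receptor, first among the members. The order is that of the 12 alpha and 8 beta subunits chosen by name, and Itgav is not among them. Itga5 stood at 1184 ± 50.7 normalized reads per kilobase (SD, n = 4), followed by Itga6 at 155 ± 2.59 and Itga3 at 133 ± 5.23. Itga11 at 99.4 ± 8.09 and Itga2b at 98.6 ± 9.38 came next and did not differ beyond their spread. Among beta subunits Itgb1 stood at 4751 ± 52.6, Itgb5 at 1214 ± 33.5 and Itgb3 at 116 ± 3.58. Itga4, Itga9 and Itgb6 were near the limit of detection, with no library above 9.8 normalized reads, and were not tested on any day. The other 31 members passed the low-value filter and were tested in every comparison. That filter acts on the deposited values, so a member could pass with few reads on a day. At day 3 Itga11 had 1.0 to 9.5 and Itga2 0.0 to 8.4 normalized reads, too few to show a knockdown effect on that day.

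The make-up of the alpha subunits differed between days in control cells. Itga5 was 67.4%, 95.5%, 86.6% and 79.4% of the summed per-kilobase level of the 12 alpha subunits on days 0, 3, 7 and 11. Itga6 was 8.83%, 2.77%, 5.62% and 6.5% on those days. In knockdown cells the share of Itga6 was 8.64%, 5.12%, 15.5% and 11.1%, and that of Itga7 at day 7 was 8.91% against 2.86% in control cells. Itga5 remained first of these 12 alpha subunits in both arms on every day, and at day 7 its share was 72.5% in knockdown cells. Itgav is outside these sums. At day 7 its means were 4105 normalized reads in control and 3590 in knockdown libraries, not divided by exon length. Those of Itga6 were 1627 and 5827. These shares are of group means and carry no test.

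Differentiation of control cells came with changes in most members. Against day 0, 29 of 31 were called at day 3 (8 higher, 21 lower), 24 at day 7 (8 higher, 16 lower) and 23 at day 11 (8 higher, 15 lower). The background was also high: 76.6%, 69.1% and 64.6% of all 13421 genes tested were called on those days, with 38.3%, 33.3% and 33% called higher and 38.2%, 35.8% and 31.6% called lower. Members called lower were 67.7%, 51.6% and 48.4% of the 31. The median change of the members was -0.56, -0.10 and -0.15 on days 3, 7 and 11, beside 0.00, -0.01 and 0.01 over all genes. Scaling each library to the same total moved the median of all genes by -0.12 at day 3, and the members then split into 6 called higher and 22 lower. The share of all calls that were higher went from 50.1% to 38.6% with it. The 3 comparisons share the day 0 libraries.

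**Figure D1:**
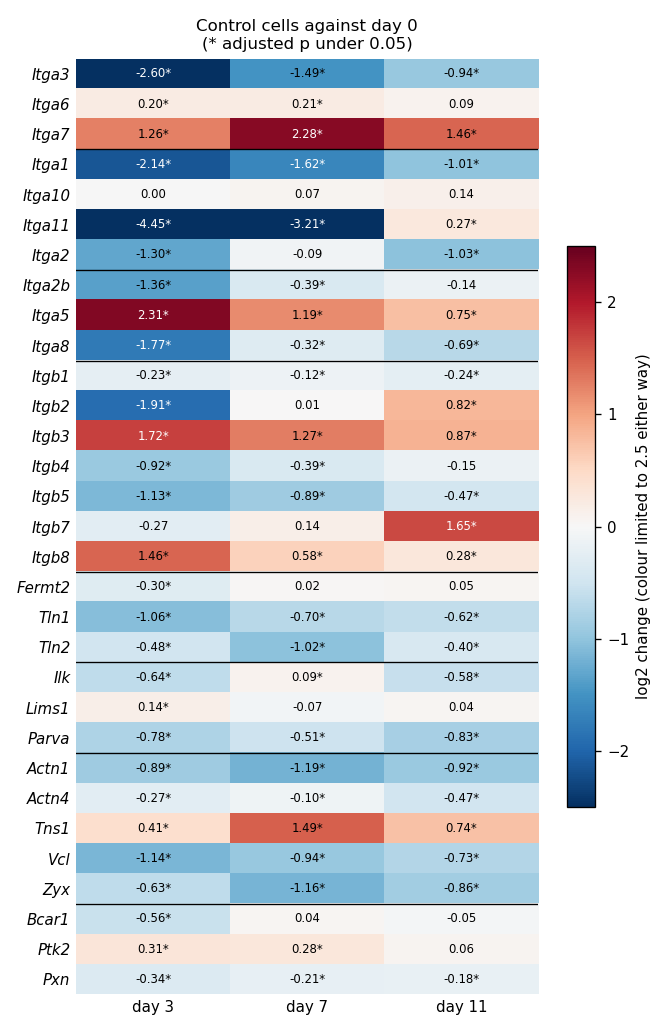
Log2 change of each tested member in control cells on days 3, 7 and 11 against day 0, from 4 libraries per day, with horizontal lines between functional groups and an asterisk where the adjusted p was under 0.05. Itga5, Itgb3 and Itga7 were higher on all 3 days, while Itga3, Itga1, Vcl, Actn1, Tln1 and Zyx were lower on all 3, and Itga11 fell at days 3 and 7 only.

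Knockdown of Zbtb9 was compared with control on each day. At day 0, before induction, 1 of 31 members was called, Fermt2, which was higher, where 3.25% of 13216 genes were called in all, 0.817% higher and 2.44% lower. At day 3, 13 were called, 2 higher and 11 lower, beside 26.7% of 13139 genes, 14.6% higher and 12.1% lower. At day 7, 19 were called, 5 higher and 14 lower, beside 47.6% of 13299 genes, 24.9% higher and 22.6% lower. At day 11, 18 were called, 5 higher and 13 lower, beside 33% of 13281 genes, 16.8% higher and 16.2% lower.

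Read against that background, members called lower made up 35.5%, 45.2% and 41.9% of the 31 on days 3, 7 and 11, and members called higher 6.45%, 16.1% and 16.1%. The median change of the members was -0.05, -0.12, -0.22 and -0.23 on days 0, 3, 7 and 11, beside -0.01, 0.00, 0.01 and -0.01 over all genes. Itga6 and Itga7 were called higher on days 3, 7 and 11, and Fermt2 and Itgb3 joined them on days 7 and 11. Actn1, Itgb1, Tln1 and Zyx were called lower on days 3, 7 and 11, and Itgb2, Itgb4, Itgb8, Lims1, Parva and Tln2 on days 7 and 11. Itga10, Itga11, Itgb7, Ptk2, Pxn and Vcl were called on no day. With the hairpins fitted as separate groups, which takes their difference out of the spread, 13 of 31 members were called at day 0 (3 higher, 10 lower), beside 25.3% of all genes in that fit (11% higher, 14.3% lower). Of all genes called at day 0, 25.1% were higher, and 43.3% after scaling to equal totals.

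The laminin-binding alpha subunits moved apart from each other. Itga6 (chromosome 2 from 71745616 to 71858416, plus strand in GENCODE M21, GRCm38) encodes alpha 6, which pairs with beta 1 or beta 4. At day 0 its normalized reads were 1366, 1417, 1408 and 1411 in control libraries, 1422 and 1363 with shRNA 1 and 1291 and 1319.6 with shRNA 2. At day 3 they were 1699, 1589.8, 1628 and 1544 in control libraries, 2367 and 2407 with shRNA 1 and 2493 and 3166 with shRNA 2. At day 7 they were 1647, 1517, 1651 and 1692 in control libraries, 6614 and 6686 with shRNA 1 and 4441 and 5566 with shRNA 2. The arms overlapped at day 0, with both shRNA 2 libraries under the controls, and from day 3 every knockdown library lay above every control library, with shRNA 1 above shRNA 2 at day 7. Day 11 values were 1432, 1487, 1565 and 1506 in control libraries, 3572 and 2802 with shRNA 1 and 2535 and 2566 with shRNA 2. The level relative to control was 1.61-fold at day 3, 3.58-fold at day 7 and 1.92-fold at day 11, with log2 changes of 0.66 (SE 0.08, adjusted p = 8.53e-05), 1.75 (SE 0.11, adjusted p = 3.12e-07) and 0.89 (SE 0.09, adjusted p = 4.29e-05). Control cells themselves rose little, by 0.20 and 0.21 at days 3 and 7 against day 0, and 0.09 at day 11 (adjusted p = 0.0625). The day 3 rise in control cells was not called after scaling to equal totals, and neither rise was called in 1 fit of all 32 libraries.

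Itga7 (chromosome 10 from 128933818 to 128958282, plus strand) encodes alpha 7, the main laminin receptor chain of skeletal muscle. Its normalized reads at day 0 were 137, 114, 114 and 164 in control libraries, 194 and 181 with shRNA 1 and 130.0 and 145 with shRNA 2. At day 3 they were 345, 397, 333 and 323 in control libraries, 559.9 and 531 with shRNA 1 and 674 and 886 with shRNA 2. At day 7 they were 762, 722, 736 and 752 in control libraries, 2824 and 2753 with shRNA 1 and 2859.5 and 3601 with shRNA 2. Knockdown libraries were all above control libraries from day 3, and the 4 control libraries at day 7 lay close together. Day 11 values were 412, 392, 408 and 409.6 in control libraries, 1289.7 and 1232 with shRNA 1 and 1362 and 1449.5 with shRNA 2, again with no overlap. Knockdown cells had 1.9, 4.05 and 3.29 times the control mean on days 3, 7 and 11, with log2 changes of 0.84 (SE 0.14, adjusted p = 0.00113), 1.91 (SE 0.07, adjusted p = 4.91e-11) and 1.62 (SE 0.06, adjusted p = 3.78e-08). In control cells Itga7 rose by 1.26, 2.28 and 1.46 against day 0. These later control libraries did not overlap those of day 0. The skeletal muscle markers Ckm and Acta1 summed to at most 7.39 normalized reads in any library.

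Itga3 (chromosome 11 from 95044474 to 95076801, minus strand), the third laminin-binding chain, behaved differently. Control means were 761 ± 29.9, 99.4 ± 8.99, 247 ± 22.3 and 373 ± 9 normalized reads (SD, n = 4) on days 0, 3, 7 and 11, with log2 changes of -2.60, -1.49 and -0.94 on days 3, 7 and 11 against day 0. At day 3 its reads were 112, 93.1, 92.1 and 101 in control libraries, 77.2 and 76.2 with shRNA 1 and 68 and 56 with shRNA 2. At day 11 they were 368, 376, 384 and 363 in control libraries, 179 and 203 with shRNA 1 and 184 and 196 with shRNA 2. The arms did not overlap on either day, and at day 11 the 4 knockdown libraries lay at 51.1% of the control mean. The knockdown changes were -0.41 (SE 0.11, adjusted p = 0.0147) at day 3 and -0.87 (SE 0.08, adjusted p = 8.49e-06) at day 11. At day 7 the arms overlapped and the change was -0.24 (adjusted p = 0.0824).

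**Figure D2:**
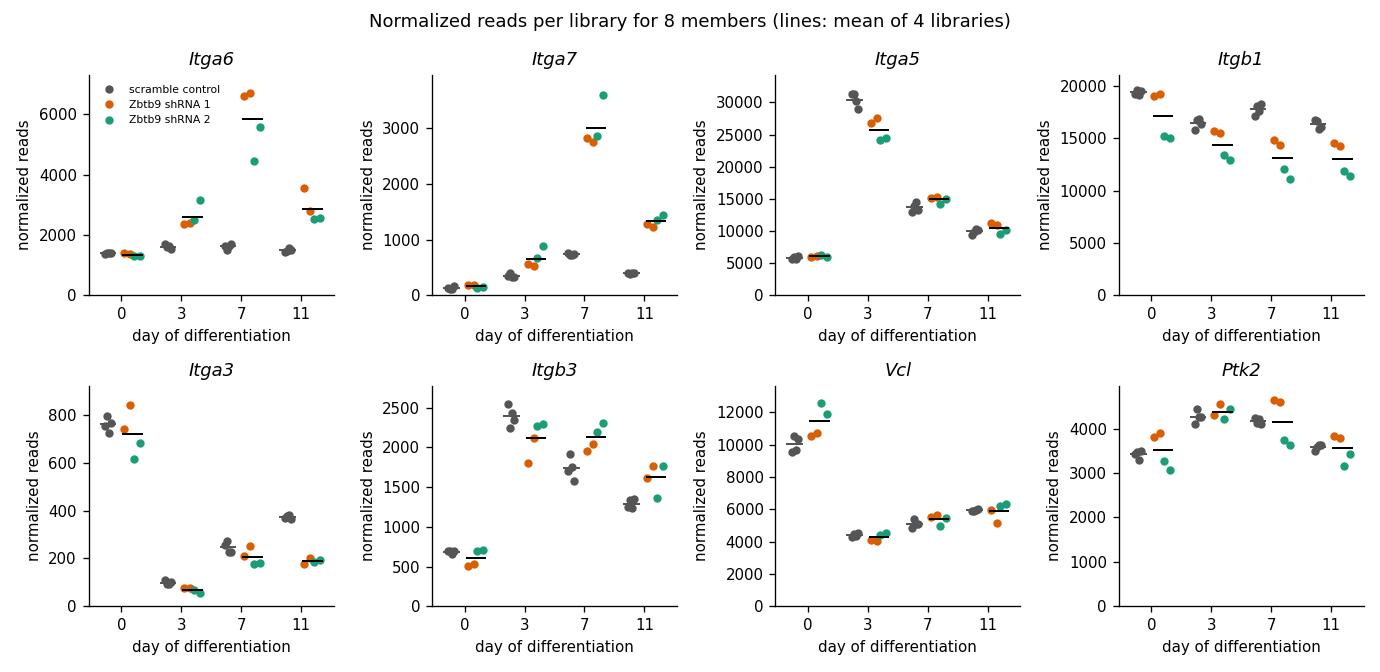
Normalized reads (vertical axis, from 0) of 8 members in each of the 32 libraries by day, with grey points for scramble control, orange for shRNA 1, green for shRNA 2 and lines for the mean of each arm's 4 libraries. Itga6 and Itga7 separate the arms from day 3, Itga3 at days 3 and 11, and Itgb1 from day 3 with shRNA 2 lowest, while Itga5 and Vcl differ more between days than between arms and Ptk2 has shRNA 1 above shRNA 2 on days 0, 7 and 11.

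Of the 4 collagen-binding alpha subunits, 3 fell at day 3 in control cells, beside 38.2% of all genes called lower. Itga11 (chromosome 9 from 62677826 to 62783982, plus strand), which binds fibrillar collagen, was at 496, 476, 570.5 and 499 normalized reads in control libraries at day 0. It was at 2.1, 4.2, 4.2 and 2.1 at day 3, 41.3, 36.5, 29.1 and 39.3 at day 7 and 612, 668, 522 and 700.3 at day 11. Its loss at days 3 and 7 and return by day 11 were the widest swing among the members. The log2 changes were -4.45 and -3.21 at days 3 and 7, and at the few reads of day 3 this size depends on how the deposited values treat low counts. The day 11 change of 0.27 (adjusted p = 0.0249) overlapped day 0, and its call was lost without control replicates 1, 2 or 4 of day 0 or 2 or 4 of day 11, with adjusted p from 0.0523 to 0.102, and after scaling to equal totals. At day 0 Itga11 was at 191 and 232 with shRNA 1 and 386 and 368 with shRNA 2, all under the controls, but the change of -0.78 was not called (adjusted p = 0.0665).

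Itga1 (chromosome 13 from 114953096 to 115101964, minus strand), which favours type IV collagen, fell in control cells, with log2 changes of -2.14, -1.62 and -1.01 on days 3, 7 and 11, from 881 ± 87.2 normalized reads (SD, n = 4). In the knockdown it was called at day 7 and on none of the other days. Its reads there were 259.8, 269.8, 233 and 270.2 in control libraries, 394 and 397 with shRNA 1 and 376 and 413 with shRNA 2. The arms did not overlap, and the change was 0.56 (SE 0.08, adjusted p = 3.48e-05). Of its exon bases, 3.68% are shared with other genes on the same strand. Itga2, another collagen receptor, fell in control cells, with changes of -1.30 and -1.03 at days 3 and 11 (adjusted p = 2.95e-11 and 1.14e-08). Its mean went from 50.7 reads to 5.26 and 11.55, so these sizes depend on how the deposited values treat low counts. In the knockdown at day 7 it was -0.60 (SE 0.15, adjusted p = 0.0042), at 30.4 and 22 with shRNA 1 and 22 and 10.7 with shRNA 2 against 39.4, 53.8, 34 and 61.2 in controls, without overlap. Itga10, at group means of 15.1 to 25.8 reads, was called in none of the 14 comparisons made. Of its exon bases, 33.5% are shared with Gm42957 on the same strand, so reads from those bases cannot be told apart from those of that gene. Whether the count of Itga10 holds or leaves out such reads is not known.

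The 2 chains of the fibronectin receptor did not move together. Itga5 (chromosome 15 from 103344286 to 103366763, minus strand) rose strongly in control cells, from 5597, 6027, 5661 and 6088 normalized reads at day 0 to 31366, 31246, 30162 and 28958 at day 3. It was 12979, 13919, 14562 and 13334 at day 7 and 9449, 9929.6, 10353 and 10229 at day 11. All 12 later libraries lay above all day 0 libraries, and the log2 changes were 2.31 (SE 0.04, adjusted p = 9.44e-33), 1.19 (SE 0.04, adjusted p = 4.42e-24) and 0.75 (SE 0.04, adjusted p = 4.17e-18). Day 3 was the peak, at 5.21 times day 0. Itgb1 (chromosome 8 from 128685654 to 128733200, plus strand), the shared beta chain of most matrix integrins, fell in the same cells from a mean of 19388 ± 215 to 16433 ± 506, 17798 ± 523 and 16337 ± 441 (SD, n = 4) on the 3 later days. Its changes were -0.23, -0.12 and -0.24, and the day 7 fall was not called in 1 fit of all 32 libraries.

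In the knockdown, Itga5 was lower at day 3, where its reads were 31366, 31246, 30162 and 28958 in control libraries, 26726 and 27642 with shRNA 1 and 24192 and 24516 with shRNA 2. No knockdown library reached the lowest control library, and the change was -0.23 (SE 0.05, adjusted p = 0.00335). At day 0 the reads with shRNA 1 were 6006 and 6190.3 and with shRNA 2 6263 and 5976. At day 7 they were 15187 and 15246 with shRNA 1 and 14269 and 14971 with shRNA 2, and at day 11 11199 and 10938 with shRNA 1 and 9579 and 10221 with shRNA 2. The arms overlapped on those 3 days and Itga5 was not called, with changes of 0.06, 0.12 and 0.07 (95% interval 0.01 to 0.23 at day 7).

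Itgb1 was lower with the knockdown from day 3. Its reads at day 3 were 15755, 16769.6, 16864 and 16345 in control libraries, 15688 and 15481 with shRNA 1 and 13404 and 12903 with shRNA 2. At day 7 they were 17124, 18129.8, 17656 and 18283 in control libraries, 14869 and 14344 with shRNA 1 and 12069 and 11076 with shRNA 2, and at day 11 16796, 16613, 15855 and 16082 in control libraries, 14582 and 14243 with shRNA 1 and 11848 and 11382 with shRNA 2. Every knockdown library was under every control library on these days, and both shRNA 2 libraries were under both shRNA 1 libraries. The changes were -0.19 (SE 0.06, adjusted p = 0.0267), -0.44 (SE 0.08, adjusted p = 0.000346) and -0.33 (SE 0.08, adjusted p = 0.009). The day 3 call was lost without control replicate 2, 3 or 4 or shRNA 2 replicate 1, with adjusted p from 0.0659 to 0.0811. At day 0 the reads were 19244, 19638, 19178 and 19491 in control libraries, 19082 and 19199 with shRNA 1 and 15188 and 14993 with shRNA 2, so that only the shRNA 2 libraries stood well under the controls, and the change was -0.18 (adjusted p = 0.232).

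Promoter sequences of these 2 chains, from RefSeq on GRCm38.p6, are shown because the chains pair in 1 receptor and went opposite ways in control cells. Those of Vcl and Fermt2 follow because they were the only 2 of 25 members with a promoter in that table that held a CArG box, a motif bound by serum response factor. Each runs 5′ to 3′ on the gene's strand over the 250 bases before the RefSeq start, with capitals on every match, on either strand, to 6 motifs. These were the CArG box, the TEAD site read as GGAATG, the GC box read as GGGCGG, the motif CCAAT, the AP-1 site read as TGANTCA and the C/EBP site read as TTNCGNAA.
Itga5 promoter, chr15:103366792-103367041, minus strand: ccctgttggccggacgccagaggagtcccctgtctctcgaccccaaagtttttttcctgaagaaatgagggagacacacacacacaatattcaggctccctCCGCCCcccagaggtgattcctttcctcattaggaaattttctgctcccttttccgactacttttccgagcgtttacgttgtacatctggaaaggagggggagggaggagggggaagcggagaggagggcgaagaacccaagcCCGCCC
Itgb1 promoter, chr8:128685404-128685653, plus strand: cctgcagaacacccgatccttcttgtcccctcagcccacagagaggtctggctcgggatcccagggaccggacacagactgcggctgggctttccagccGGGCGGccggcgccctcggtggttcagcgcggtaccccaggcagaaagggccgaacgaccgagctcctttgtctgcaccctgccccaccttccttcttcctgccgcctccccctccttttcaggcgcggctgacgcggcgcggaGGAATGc
Vcl promoter, chr14:20929148-20929397, plus strand: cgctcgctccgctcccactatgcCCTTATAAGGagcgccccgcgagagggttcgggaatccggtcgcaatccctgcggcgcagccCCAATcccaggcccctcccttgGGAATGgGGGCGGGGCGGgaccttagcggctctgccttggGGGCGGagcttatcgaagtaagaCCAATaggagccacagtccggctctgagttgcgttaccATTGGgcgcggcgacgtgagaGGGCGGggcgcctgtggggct
Fermt2 promoter, chr14:45530119-45530315, minus strand: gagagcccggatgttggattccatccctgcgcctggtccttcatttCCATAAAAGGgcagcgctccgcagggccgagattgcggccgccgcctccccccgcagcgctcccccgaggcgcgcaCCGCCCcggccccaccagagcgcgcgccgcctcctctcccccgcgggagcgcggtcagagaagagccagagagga

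Over the 250 bases before each start, the CArG box was in 1.47% of 32851 promoters, GGAATG in 12.6%, GGGCGG in 32.7%, CCAAT in 33.8%, TGANTCA in 6.75% and TTNCGNAA in 2.04%. In the Itga5 promoter only GC boxes were found, and in that of Itgb1 a GC box and, just before the start, GGAATG. The Vcl promoter held the CArG box from 227 to 218 bases before the start, and Fermt2 from 204 to 195 bases before it. The last 53 bases before the RefSeq start of Fermt2 lie inside the GENCODE gene and are not printed. Of the 25 members, 13 held a GC box, 4 held GGAATG (Actn4, Itga10, Itgb1 and Vcl), 3 held CCAAT, 2 held TGANTCA (Actn4 and Zyx) and none held TTNCGNAA. A match is a description of the letters and not of binding. Promoters of Itga6, Itga7, Itgb2, Itgb3, Itgb4, Parva, Ptk2, Pxn and Tln2 were not used here.

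The other RGD-binding alpha subunits, named for the short motif they recognise in fibronectin and related proteins, were lower on some days. Itga2b, best known as the platelet fibrinogen receptor chain, had the following reads at day 3: 212, 185, 183 and 169 in control libraries, 124 and 104 with shRNA 1 and 119 and 122 with shRNA 2. The arms did not overlap there, and the change was -0.57 (SE 0.10, adjusted p = 0.000655). At day 7 it was -0.34 (adjusted p = 0.00798), with 1 of 4 knockdown libraries inside the control range. The 2 platelet markers in the table summed to at most 11.4 normalized reads in any library. In control cells Itga2b fell, with changes of -1.36 and -0.39 at days 3 and 7. Itga8, a receptor for nephronectin, was lower at day 7, with 69.9, 52.7, 91.3 and 50.8 in control libraries, 30.4 and 20.9 with shRNA 1 and 32.5 and 34.1 with shRNA 2, and its change there was -0.71 (SE 0.14, adjusted p = 0.000873). The 4 knockdown libraries were all lower than the 4 controls. At day 11 the change of Itga8 was -0.45 (adjusted p = 0.0606). Control cells had less Itga8 at day 3, with a change of -1.77, when 4 libraries averaged 8.17 reads.

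Among the other beta subunits, Itgb3 (chromosome 11 from 104608000 to 104670476, plus strand), the partner of alpha V in vitronectin binding, rose in control cells. Its control reads were 699, 693, 654 and 696 at day 0 and 2542, 2241, 2436 and 2345 at day 3. They were 1698, 1921, 1758 and 1573 at day 7 and 1246, 1333, 1239 and 1344 at day 11. The later days did not overlap day 0, and the changes were 1.72 (SE 0.05, adjusted p = 1.3e-25), 1.27 (SE 0.05, adjusted p = 1.65e-21) and 0.87 (SE 0.05, adjusted p = 1.4e-16). Itgb3 was higher with the knockdown at day 7, at 1956 and 2048 with shRNA 1 and 2196 and 2309.7 with shRNA 2, and at day 11, at 1610.4 and 1767 with shRNA 1 and 1366 and 1765 with shRNA 2. These libraries lay above all controls of their day, and the changes were 0.28 (SE 0.07, adjusted p = 0.00258) and 0.31 (SE 0.08, adjusted p = 0.00969). At days 0 and 3 the changes were -0.17 and -0.17 and were not called.

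Itgb8, which presents latent TGF-beta for activation, rose in control cells at day 3 from 70.4 ± 10.4 to 252 ± 68 reads (SD, n = 4), which is 1.46 (SE 0.12, adjusted p = 5.87e-13) as a log2 change. It was lower with the knockdown at day 7, with 126, 123, 111 and 111 in control libraries, 55.8 and 44.1 with shRNA 1 and 101 and 95.5 with shRNA 2. At day 11 the reads were 95.2, 82.2, 83.6 and 101 in control libraries, 41.9 and 25 with shRNA 1 and 52.1 and 76.5 with shRNA 2. No library overlapped on either day, shRNA 1 was lower than shRNA 2, and the changes were -0.56 (SE 0.17, adjusted p = 0.013) and -0.69 (SE 0.18, adjusted p = 0.0144). For Itgb2, the leukocyte beta chain, the reads at day 7 were 117, 88.2, 99 and 116 in control libraries, 62.9 and 52.2 with shRNA 1 and 59.8 and 51.6 with shRNA 2, again without overlap, with a change of -0.66 (SE 0.12, adjusted p = 0.000233). At day 11 it was -0.42 (SE 0.10, adjusted p = 0.00796). In control cells Itgb2 fell at day 3 (-1.91), to 10.8 reads, and rose by 0.82 by day 11. The 5 leukocyte markers in the table summed to 504.0 to 536.5 reads in control and 357.2 to 504.5 in knockdown libraries at day 7. At day 11, where Itgb2 was also lower, they summed to 720.3 to 830.7 in control and 901.7 to 1049.2 in knockdown libraries.

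Itgb7, another beta chain of leukocytes, rose in control cells at day 11, where its reads were 127, 178, 249.9 and 181 against 45.5, 30.4, 39.4 and 34.8 at day 0, and did not overlap day 0. The change was 1.65 (SE 0.14, adjusted p = 2.01e-12). In the knockdown it was called on no day, with shRNA 1 at 148 and 157 and shRNA 2 at 77.6 and 59.5 at day 11. Itgb5, an alpha V partner, fell in control cells (-1.13, -0.89 and -0.47 on days 3, 7 and 11) and was lower with the knockdown at day 11, at 81.3% of control, with a change of -0.29 (SE 0.06, adjusted p = 0.00471). Itgb4, the hemidesmosome partner of alpha 6, stood at only 41.4 and 53.7 reads in control cells at days 7 and 11. Its knockdown changes were -0.42 (SE 0.13, adjusted p = 0.014) and -0.44 (SE 0.12, adjusted p = 0.0186). These calls were lost without control replicate 1 at day 7 (adjusted p = 0.0544) and without control replicate 1 or 2 at day 11 (adjusted p = 0.0576 for each).

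The integrin activators split. Tln1 encodes talin 1, and its reads at day 7 were 7296, 7945, 7719.7 and 7776 in control libraries, 5560.0 and 5122 with shRNA 1 and 5454 and 5998 with shRNA 2. At day 11 they were 8294, 7851, 8161 and 8073 in control libraries, 6000.5 and 5456 with shRNA 1 and 6248 and 6241 with shRNA 2. Every knockdown library was lower than every control library on both days. Its changes were -0.46 (SE 0.05, adjusted p = 4.68e-06) and -0.42 (SE 0.06, adjusted p = 0.000147). At day 3 the change was -0.18 (adjusted p = 0.0325), with 1 knockdown library inside the control range. That call was lost without shRNA 1 replicate 1 or 2 or control replicate 2, 3 or 4, with adjusted p from 0.0697 to 0.104. The other talin, Tln2, was -0.39 (SE 0.07, adjusted p = 0.000509) at day 7 and -0.38 (SE 0.07, adjusted p = 0.00242) at day 11. In control cells both talins fell, with changes of -1.06, -0.70 and -0.62 for Tln1 and -0.48, -1.02 and -0.40 for Tln2 on days 3, 7 and 11.

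Fermt2 (chromosome 14 from 45458795 to 45530118, minus strand) encodes kindlin-2, the kindlin of fibroblasts, and went the other way. At day 0 its reads were 2592, 2477, 2487 and 2734 in control libraries, 2806 and 3007 with shRNA 1 and 3007 and 3043 with shRNA 2. At day 7 they were 2619.5, 2637, 2793 and 2405 in control libraries, 3286 and 3294 with shRNA 1 and 3603 and 3397 with shRNA 2, and at day 11 2693, 2743, 2539 and 2717 in control libraries, 3895 and 4217 with shRNA 1 and 3799 and 3831 with shRNA 2. Knockdown libraries were above all controls on these 3 days. The changes were 0.20 (SE 0.05, adjusted p = 0.0432), 0.36 (SE 0.06, adjusted p = 5.63e-05) and 0.54 (SE 0.05, adjusted p = 1.52e-05), and at day 3 the arms overlapped (-0.06, adjusted p = 0.527). The day 0 call was kept only when shRNA 1 replicate 1 was left out and was lost without each of the other 7 libraries, with adjusted p from 0.0549 to 0.149. In control cells Fermt2 was -0.30 at day 3 and was not called at days 7 or 11.

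The 3 members of the ILK, PINCH and parvin complex were each lower with the knockdown on 2 days. Over all genes, 12.1%, 22.6% and 16.2% were called lower on days 3, 7 and 11. Parva encodes alpha-parvin, and its reads at day 11 were 4088, 4066, 3977 and 4053 in control libraries, 2854 and 2436 with shRNA 1 and 3136 and 3074 with shRNA 2. The arms did not overlap, knockdown cells were at 71.1% of control, and the change was -0.48 (SE 0.07, adjusted p = 0.000364). At day 7 it was -0.22 (SE 0.05, adjusted p = 0.00204). Lims1, encoding PINCH1, was -0.33 (SE 0.06, adjusted p = 0.000155) at day 7 and -0.39 (SE 0.05, adjusted p = 0.000106) at day 11. For Ilk, the scaffold of the complex, the reads at day 3 were 2119, 1997, 2143 and 2114 in control libraries, 1725 and 1778 with shRNA 1 and 1782 and 1666 with shRNA 2, with all knockdown libraries lower. Its changes were -0.26 (SE 0.04, adjusted p = 0.000847) and -0.22 (SE 0.05, adjusted p = 0.00213) at days 3 and 7. Of the exon bases of Ilk, 89.7% are also covered by Rrp8 or Taf10 on the opposite strand. The counting strand is not given in the sources used here, so reads from those bases cannot be told apart from theirs. In control cells Parva fell on days 3, 7 and 11 (-0.78, -0.51 and -0.83) and Ilk at days 3 and 11 (-0.64 and -0.58). Ilk was 0.09 at day 7, a call lost without control replicate 2 or 3 of day 0 or 1 of day 7 (adjusted p from 0.0559 to 0.0986) and after scaling to equal totals. Lims1 rose by 0.14 at day 3 (adjusted p = 0.00417), a call lost after scaling to equal totals.

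Of the 5 actin linkers, 4 fell as control cells differentiated. Over all genes, 38.2%, 35.8% and 31.6% were called lower on days 3, 7 and 11. Vcl (chromosome 14 from 20929398 to 21033676, plus strand) encodes vinculin, and its control reads were 9553, 10538, 9662 and 10325 at day 0 and 4309, 4471, 4369.5 and 4549.8 at day 3. They were 4870.0, 5383, 5092 and 5119 at day 7 and 5891, 5878, 5932 and 6028 at day 11. Each later library was under each day 0 library, and the changes were -1.14 (SE 0.04, adjusted p = 8.16e-25), -0.94 (SE 0.04, adjusted p = 4.94e-22) and -0.73 (SE 0.04, adjusted p = 1.04e-18). The changes on those days were -0.89, -1.19 and -0.92 for Actn1, -0.63, -1.16 and -0.86 for Zyx and -0.27, -0.10 and -0.47 for Actn4. For Actn4 at day 7 the call did not hold without control replicate 1 of that day (adjusted p = 0.0761). Tns1, encoding tensin 1 of fibrillar adhesions, instead rose, from 2595 ± 143 to 7571 ± 535 reads at day 7 (SD, n = 4), with changes of 0.41, 1.49 (SE 0.05, adjusted p = 1.15e-23) and 0.74. The opposite-strand gene Ap3m1 covers 25.5% of the exon bases of Vcl.

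With the knockdown, Vcl reads were 10553 and 10724 with shRNA 1 and 12581 and 11923 with shRNA 2 at day 0, above all controls. With shRNA 1 they were 4128 and 4065 at day 3, 5541 and 5632 at day 7 and 5930.0 and 5178 on the last day. With shRNA 2 they were 4401 and 4554, then 4972 and 5441, then 6175 and 6301. The arms overlapped on the 3 later days. Vcl was not called on any day, with changes of 0.18 (adjusted p = 0.13), -0.04, 0.07 and -0.01, and a 95% interval of -0.15 to 0.12 at day 11. Zyx and Actn1, by contrast, were lower on days 3, 7 and 11. Actn1 encodes a crosslinker of actin, and its reads at day 7 were 4545, 4505, 4776 and 4653 in control libraries, 3617 and 3401 with shRNA 1 and 3079.7 and 3366 with shRNA 2, with all knockdown libraries lower. Its changes were -0.25 (SE 0.07, adjusted p = 0.0265), -0.44 (SE 0.05, adjusted p = 6.06e-06) and -0.33 (SE 0.04, adjusted p = 0.000199), and at day 3 it was no longer called without shRNA 1 replicate 1 or any 1 control library, with adjusted p from 0.052 to 0.0685. Zyx, encoding zyxin, was -0.23 (SE 0.06, adjusted p = 0.0081), -0.39 (SE 0.05, adjusted p = 2.02e-05) and -0.23 (SE 0.06, adjusted p = 0.00865). Actn4 was -0.19 (SE 0.04, adjusted p = 0.00408) at day 3 and -0.15 (SE 0.05, adjusted p = 0.0231) at day 11, and the latter was no longer called when control replicate 2 or 3 was left out (adjusted p = 0.0647 and 0.0708). Tns1 was -0.24 (SE 0.05, adjusted p = 0.00374) at day 3.

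Of the signalling members, Ptk2 (chromosome 15 from 73205102 to 73423280, minus strand), encoding focal adhesion kinase, was called on no knockdown day. Its control reads were 3419.8, 3466, 3289 and 3503 at day 0 and 4109.9, 4433, 4252 and 4250.1 at day 3. They were 4230.4, 4122, 4220.1 and 4103 at day 7 and 3483, 3582, 3638 and 3620.3 at day 11. At days 0, 7 and 11 shRNA 1 lay above and shRNA 2 below all controls, so the arms as a whole overlapped. With shRNA 1 the reads were 3817 and 3895 at day 0, 4304 and 4546 at day 3, then 4651 and 4588 at day 7, then 3841 and 3785. With shRNA 2 they were 3269 and 3075 at day 0, 4222 and 4445 at day 3, then 3734 and 3629.7 at day 7, then 3157 and 3425. The knockdown changes were 0.03, 0.04, -0.01 and -0.01, none called, with a 95% interval of -0.17 to 0.14 at day 7. In control cells Ptk2 rose by 0.31 and 0.28 at days 3 and 7.

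Bcar1, encoding the adaptor p130Cas, was called lower at day 3 and higher at day 11. At day 3 its reads were 2452, 2655, 2572 and 2469.5 in control libraries, 2174 and 2176 with shRNA 1 and 2132 and 2391 with shRNA 2, lower in every knockdown library. At day 11 they were 3674, 3664, 3504 and 3745 in control libraries, 5376 and 6141 with shRNA 1 and 5728 and 5898 with shRNA 2, 1.59 times control and without overlap. The changes were -0.19 (SE 0.05, adjusted p = 0.0104) and 0.64 (SE 0.05, adjusted p = 4.79e-06). At day 7 it was -0.12 (adjusted p = 0.0855). Pxn, encoding paxillin, was called on no knockdown day and fell in control cells on days 3, 7 and 11 (-0.34, -0.21 and -0.18).

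Whether the knockdown effect itself differed from that at day 0 was tested for each later day in 1 fit of all 32 libraries. Of 31 members, 9 differed at day 3 (3 upward, 6 downward), 13 at day 7 (6 and 7) and 12 at day 11 (6 and 6), beside 6.57%, 29.9% and 23.2% of 13571 genes. After scaling to equal totals the splits were 3 upward and 8 downward at day 3, 5 and 12 at day 7, and 6 and 8 at day 11. Of all genes called, the shares upward went from 56.2%, 56% and 53.6% to 42.4%, 40.7% and 40.1%. The 3 differences share the day 0 libraries. The 9 at day 3 include Itga11, which had 9.5 reads or fewer in every library of that day, so that its value there can show no knockdown effect of day 3. Itga6 differed by 1.81 (adjusted p = 1.46e-11) and Itga7 by 1.66 (adjusted p = 2.88e-09) at day 7. Itga3 at day 11 differed by -0.79 (adjusted p = 3.74e-05). The effect on Itgb1 at day 7 differed from that at day 0 by -0.26 (adjusted p = 0.107), so its call at day 7 and not at day 0 is not shown to be a change in effect.

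The 2 hairpins were compared with each other on each day. Of 31 members, 18, 13, 6 and 12 were called on days 0, 3, 7 and 11, beside 35%, 19.6%, 16.4% and 22% of all genes tested. Members higher and lower with shRNA 2 were 12 and 6 at day 0 and 10 and 3 at day 3. Of all calls on those days, 53.1% and 54.4% were higher with shRNA 2. At day 7 shRNA 2 was higher for 1 and lower for 5 of the 6, and after scaling to equal totals higher for 2 and lower for 4. The share of all calls at day 7 that were higher with shRNA 2 went from 45.8% to 61.9% with that scaling. Each comparison rests on 2 libraries a hairpin, and the day 3 and day 11 counts were 7 to 14 and 4 to 12 when 1 library was left out. At day 3 the count was 8 without shRNA 1 replicate 1, 8 without shRNA 1 replicate 2 and 7 without shRNA 2 replicate 2. At day 11 it was 4 without shRNA 1 replicate 2 and 5 without shRNA 2 replicate 1 or 2. The day 11 split of 8 higher and 4 lower with shRNA 2 became 1 and 3 without shRNA 1 replicate 2, and 1 and 4 without shRNA 2 replicate 2. Against the same controls at day 7, Itga7 was 1.81 with shRNA 1 and 2.01 with shRNA 2, and Itga6 was 1.96 and 1.55. Itgb1 was -0.28 with shRNA 1 and -0.60 with shRNA 2 at day 7, and shRNA 2 differed from shRNA 1 by -0.33 (SE 0.06, adjusted p = 0.000236). Itgb7 at day 7 was 0.06 with shRNA 1 and -1.01 with shRNA 2. Itgb8 at day 7 was -0.92 and -0.20.

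**Figure D3:**
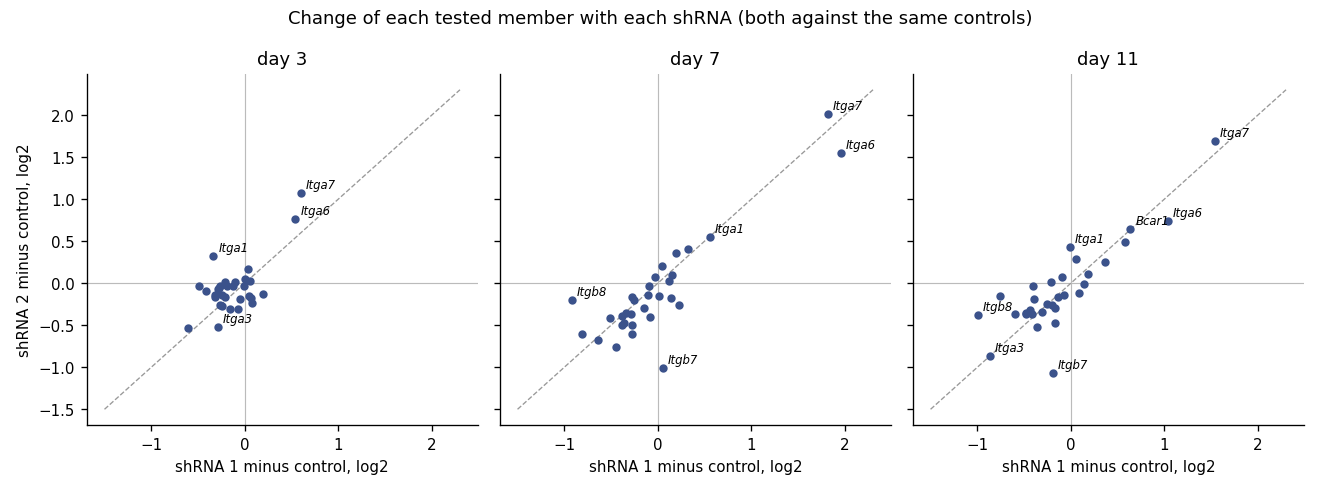
Log2 change against the same control libraries with shRNA 1 (horizontal axis) and shRNA 2 (vertical axis) for the 31 tested members on days 3, 7 and 11, with a dashed line where both are equal. Itga6 and Itga7 lie at the upper right on all 3 days, while Itgb8 is lower with shRNA 1 and Itgb7 with shRNA 2 at days 7 and 11.

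The related genes came from 4 lists, and those named are the largest called changes of each day, so that a day not given for a gene may still hold a smaller one. Of the 25 matrix and cell surface ligands of integrins, 22 were tested in each comparison, and 3, 8, 15 and 8 were called in the knockdown on days 0, 3, 7 and 11. These are 13.6%, 36.4%, 68.2% and 36.4% of the list, beside 3.25%, 26.7%, 47.6% and 33% of all genes tested, so that the day 11 share is near the background. All 3 were lower at day 0, and 3, 7 and 5 were higher on the later days. The laminin chains Lamb1 (0.28) and Lamc1 (0.24) and the matrix glycoprotein Tnc (0.45) were higher at day 3, Lamb1 and Lamc1 also at day 11 (0.20 and 0.26), and Lama5, another laminin chain, at day 7 (0.84). At day 0 Lama5 was lower (-0.69). Npnt, encoding the alpha 8 ligand nephronectin, was higher at day 7 (1.17), from 53.3 ± 10.2 to 161 ± 48.3 reads (SD, n = 4), and Ccn1, a matricellular protein, was higher at days 7 and 11 (0.45 and 1.16). Lower ligands were Thbs1, encoding thrombospondin 1, at days 3, 7 and 11 (-0.71, -1.21 and -0.84), Vcam1, a cell surface ligand of leukocyte integrins (-0.38, -1.16 and -1.33), Spp1, encoding osteopontin, at days 3 and 11 (-0.72 and -1.06), and Fbn1, encoding fibrillin 1, at day 7 (-0.60). At day 0 Mfge8 (-0.32) and Col1a1 (-0.28) were also lower.

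Among 29 other adaptors of focal adhesions, 28 were in the table and 27 tested from day 3 (26 at day 0). In the knockdown 2, 12, 19 and 20 were called on days 0, 3, 7 and 11, of which 2, 10, 13 and 14 were lower, and their median changes were -0.02, -0.11, -0.13 and -0.22. The calls from day 3 on are 44.4%, 70.4% and 74.1% of the adaptors tested, and the lower calls 37%, 48.1% and 51.9%. Over all genes the shares were 26.7%, 47.6% and 33% called and 12.1%, 22.6% and 16.2% called lower. At day 0, 7.69% were called, beside 3.25%. Kank1, an adhesion scaffold, was higher on days 3, 7 and 11 (0.52, 1.27 and 0.89), as was Lims2, encoding PINCH2, on days 7 and 11 (0.55 and 0.67). Flna, encoding filamin A, was lower on days 7 and 11 (-0.73 and -0.51), Tns3, a tensin, at day 7 (-0.81) and Kank2 on days 3 and 7 (-0.44 and -0.69). At day 11 Pdlim5 (-0.63) and Tes (-0.55), LIM proteins of stress fibres, were lower. At day 3 Parvb (-0.48) and Sorbs3 (-0.41) were lower and Flnc was higher (0.45), and at day 0 Tns2 (-0.32) and Sorbs3 (-0.30) were lower.

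Of 21 signalling genes at focal adhesions, all tested, 7 were called on each of days 3, 7 and 11, with 3, 2 and 2 of them higher. That is 33.3% of the list on each day, beside 26.7%, 47.6% and 33% of all genes, so the count is under the background at day 7 and near it at day 11. Nedd9, a relative of p130Cas, was higher on days 3 and 7 (0.58 and 0.89), and Rap1a, a small GTPase that acts on integrin activation, on days 3, 7 and 11 (0.41, 0.55 and 0.37). Elmo1 and Dock1, which together activate Rac, were lower, Elmo1 on days 3, 7 and 11 (-0.45, -0.49 and -0.34) and Dock1 on days 7 and 11 (-0.47 and -0.49). Apbb1ip, encoding the Rap1 effector RIAM, was lower on days 3 and 7 (-0.57 and -0.37), and Ptk2b, the relative of focal adhesion kinase, at day 3 (-0.47). Rock1 was higher at day 3 (0.17), Git2 higher (0.23) and Crk lower (-0.18) at day 11.

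Of the 6 integrin chains whose names carry a letter, 3 were tested at day 7 and all 3 were called, 2 higher and 1 lower, beside 47.6% of all genes. At day 11, 2 of 4 were called, both higher, beside 33%. At days 0 and 3 the 1 tested, Itgav, was not called. Itgal, the alpha chain of the leukocyte receptor LFA-1, was higher with the knockdown at day 7 (1.46, SE 0.12, adjusted p = 9.96e-08), at 73.9 ± 9.34 reads against 10.1 ± 1.48 in control cells (SD, n = 4), and at day 11 (0.78, adjusted p = 0.00265). The leukocyte marker Cd68 was higher on the same days, at 101 ± 24.4 reads against 44.9 ± 9.38 at day 7 (0.87, adjusted p = 0.000189) and 395 ± 148 against 191 ± 57.3 at day 11 (0.86, adjusted p = 0.0284, with overlap), while Ptprc was at or under 3 and Cd14 was lower at day 7 (-0.40). The part of such markers in the Itgal result was not tested. Itgae, the alpha E chain, was also higher, at 49.1 ± 17.0 reads against 15.1 ± 8.84 at day 7 (0.85, SE 0.17, adjusted p = 0.000799) and 34.2 ± 5.25 against 7.88 ± 1.76 at day 11 (0.85, SE 0.11, adjusted p = 0.000172), without overlap on either day. Itgav, the partner of Itgb3 and Itgb5, was slightly lower at day 7 (-0.19, adjusted p = 0.00713) and fell in control cells at day 3 (-1.16). Itgam and Itgax, the myeloid chains, had 3 normalized reads or fewer in every library on days 0, 3 and 7.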

How the data were processed

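RNA was prepared with spin columns and a TruSeq RNA kit, per the labels' protocols. The submitters' processing notes name TopHat2 2.1.0, Bowtie2 2.2.6, SAMtools 1.3.1 and HTSeq 0.6.1. The genome build and the strand setting are not given in the sources used here. The authors deposited 1 table of log2 values, which has the form of a regularized log and understates differences of genes with few reads. Inverting that form gave whole reads (99.3% of values within 0.1 of a whole number), used for the levels printed. The deposited values were tested with limma 3.58.1 in R 4.3.3, with trend and robust empirical Bayes and Benjamini-Hochberg adjustment over all genes tested, keeping genes with 2 to the power of the value at 10 or more in at least 4 libraries of the fit. Each day was fitted on its own libraries, control time on the control libraries, and effect differences between days on all 32. P-values measure the spread between libraries of 1 line. Replicates of each arm differed beyond sampling noise. The rule for named members took Itga5, Itga6, Itgb1, Vcl and Ptk2, and the 3 largest rises and falls of each knockdown and control comparison among called members without overlap and with at least 50 reads in the higher group. Per-library values of others were added after they were seen. Members and lists were chosen with earlier results of these data known. The values of 1 gene of the adaptor list are not reported here, though the counts of that list hold it. Alternatives covered the filter, scaling, pseudocount, voom, hairpins as separate groups, a replicate block and leaving out each library. Fits were tested on simulated data.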

Additional observations from a re-analysis of the deposited data

Results flagged for a closer look

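In groups of 4 libraries, 3 single libraries lay far from the other 3 of their group on the deposited log2 scale, by Dixon's criterion at 95%. Fermt2 at day 0 was 11.453 in shRNA 1 replicate 1, under the 11.549 to 11.565 of the other knockdown libraries. Itga7 at day 7 was 11.675 in shRNA 2 replicate 2, above the 11.304 to 11.357 of the others. Itgb3 at day 0 was 9.41 in control replicate 3, under the 9.489 to 9.499 of the others. Chance alone picks about 1 in 20 groups of like replicates, and 168 groups of 21 members were examined. Knockdown groups hold 2 libraries of each hairpin, so that rate does not apply to them where the hairpins differ. The flags of Fermt2 and Itga7 come from such groups.

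The knockdown effect on a later day differed from that at day 0 for the members below, all from the 21 named members. Each value is the log2 effect of the later day minus that of day 0, with the adjusted p of limma's interaction term. All these values share the day 0 libraries. Members called outside those 21 are not listed, and all of them were downward. Over 31 members the upward and downward calls were 3 and 6, 6 and 7, and 6 and 6 at days 3, 7 and 11. Itga11 had 1.0 to 9.5 normalized reads at day 3 in both arms, too few to show a knockdown effect on that day, so its day 3 value restates the uncalled day 0 change of -0.78. Itga3 differed by -0.79 at day 11 (adjusted p = 3.74e-05). Itga6 differed by 0.71, 1.81 and 0.94 at days 3, 7 and 11 (adjusted p = 0.00118, 1.46e-11 and 4.69e-06). Itga7 differed by 0.59, 1.66 and 1.37 at days 3, 7 and 11 (adjusted p = 0.0268, 2.88e-09 and 1.91e-07). Itga1 differed by 0.84 at day 7 (adjusted p = 0.00436). Itga11 differed by 0.81 and 0.55 at days 3 and 7 (adjusted p = 0.01 and 0.0357). Itga5 differed by -0.30 at day 3 (adjusted p = 0.00754). Itga8 differed by -0.58 at day 7 (adjusted p = 0.0285). Itgb3 differed by 0.45 and 0.49 at days 7 and 11 (adjusted p = 0.00534 and 0.00393). Fermt2 differed by -0.25 and 0.34 at days 3 and 11 (adjusted p = 0.0356 and 0.000953). Parva differed by -0.23 and -0.49 at days 7 and 11 (adjusted p = 0.0214 and 1.22e-05). Tns1 differed by 0.48 and 0.52 at days 7 and 11 (adjusted p = 0.013 and 0.0092). Bcar1 differed by -0.24, -0.17 and 0.59 at days 3, 7 and 11 (adjusted p = 0.0207, 0.042 and 2.71e-08).

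The libraries of the 2 hairpins differed for the members below, again only those among the 21 named members. Over 31 members, 18, 13, 6 and 12 were called on days 0, 3, 7 and 11, so some are not listed. Each value below is the log2 level with shRNA 2 minus that with shRNA 1, from 2 libraries of each per day, with limma's adjusted p. Itga3 differed by -0.26 at day 0 (adjusted p = 0.0094). Itga6 differed by 0.23, -0.40 and -0.30 at days 3, 7 and 11 (adjusted p = 0.0304, 0.000628 and 0.0199). Itga7 differed by -0.39 and 0.47 at days 0 and 3 (adjusted p = 0.0276 and 0.00138). Itga1 differed by 0.45, 0.66 and 0.44 at days 0, 3 and 11 (adjusted p = 6.46e-05, 0.0016 and 0.0316). Itga11 differed by 0.76 at day 0 (adjusted p = 1.28e-06). Itga2b differed by 0.30 and 0.38 at days 0 and 11 (adjusted p = 0.0343 and 0.0137). Itga5 differed by -0.15 at day 3 (adjusted p = 0.00874). Itga8 differed by 0.61 at day 11 (adjusted p = 0.0147). Itgb1 differed by -0.33, -0.24, -0.33 and -0.30 at days 0, 3, 7 and 11 (adjusted p = 4.14e-09, 9.21e-05, 0.000236 and 0.00236). Itgb3 differed by 0.41 and 0.21 at days 0 and 3 (adjusted p = 6.23e-05 and 0.0158). Itgb7 differed by -0.91, -1.07 and -0.87 at days 0, 7 and 11 (adjusted p = 0.000272, 0.000381 and 0.00481). Itgb8 differed by 0.71 and 0.62 at days 7 and 11 (adjusted p = 0.00213 and 0.0213). Fermt2 differed by -0.20 at day 3 (adjusted p = 0.0141). Ilk differed by 0.18 and 0.23 at days 0 and 11 (adjusted p = 0.00192 and 0.0169). Parva differed by 0.16 and 0.23 at days 3 and 11 (adjusted p = 0.0203 and 0.0216). Tns1 differed by 0.56, 0.16 and 0.23 at days 0, 3 and 11 (adjusted p = 1.53e-06, 0.033 and 0.0231). Vcl differed by 0.20 at day 0 (adjusted p = 0.000634). Ptk2 differed by -0.27, -0.32 and -0.21 at days 0, 7 and 11 (adjusted p = 2.24e-05, 0.000219 and 0.0188).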

How the results depend on the processing

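For single members called in a comparison, 0 of 3653 values under the alternatives had the opposite sign, and for those not called 104 of 3138 did. Many of these values could not turn. The filter, empirical Bayes, separate-hairpin and 32-library alternatives keep the same difference of group means. So does leaving out a library of a day or arm outside the comparison. The balance of higher and lower calls turned for 2 comparisons. The 1 higher and 0 lower at day 0 in the knockdown became 0 and 1 without trend or robust empirical Bayes, 3 and 10 with the shRNAs as separate groups, 1 and 3 in 1 fit of all 32 libraries, 0 and 2 without shRNA 2 replicate 1 and 0 and 3 without shRNA 2 replicate 2. Between hairpins at day 11 it turned without shRNA 1 replicate 2 or shRNA 2 replicate 2. Leaving out 1 library gave 10 to 16, 18 to 20 and 16 to 22 members called in the knockdown on days 3, 7 and 11, 29 to 30, 22 to 24 and 21 to 23 in control cells against day 0, and 13 to 18, 7 to 14, 4 to 7 and 4 to 12 between hairpins on days 0, 3, 7 and 11. The day 0 knockdown count of 1 was 0 to 3 without 1 library, 0 with no filter, 2 after rescaling to equal totals, 2 with a pseudocount of 1, 2 with voom on rebuilt reads, 13 with the shRNAs as separate groups and 4 in 1 fit of all 32 libraries. Between hairpins the day 3 count of 13 was 4 with no filter and 2 without trend or robust empirical Bayes, and the day 11 count of 12 was 5 without them. The cause was not tested. The day 3 knockdown calls of Actn1, Itgb1 and Tln1 were lost with no filter. Over single members, 3329 results kept their side of the threshold without 1 library, 112 lost it and 31 gained it, and under the other alternatives 3148 kept, 106 lost and 65 gained it. The counts kept include members not called. For control time and hairpins they also include fits without a library outside the comparison, which leaves the difference itself unchanged.

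With the replicate number as a block, 0, 2, 15 and 9 members were called in the knockdown on days 0, 3, 7 and 11, beside 0%, 6.43%, 30.9% and 12.4% of all genes tested. The splits were 1 higher and 1 lower at day 3, 4 and 11 at day 7 and 4 and 5 at day 11. At day 3 the calls of Itga2b and Itga6 held and 11 did not (adjusted p from 0.0594 to 0.299). At day 7 those of Itgb3, Itgb4, Itgb8 and Parva did not (0.0513 to 0.0893). At day 11 those of Actn4, Itgb1, Itgb2, Itgb3, Itgb4, Itgb5, Itgb8, Tln2 and Zyx did not (0.0551 to 0.221). Control replicates 3 and 4 have no knockdown partner of that number and so do not enter the blocked difference. The block gave 29, 24 and 23 calls in control cells, 18, 14, 7 and 12 between hairpins, and 8, 13 and 12 for the differences from day 0. Within a day, 23 of 24 pairs of same-numbered libraries correlated best with their own number, but weakly, with correlations of deviations from -0.01 to 0.21, over 0.1 in 3 pairs, all at day 11. Between days of the control, 8 of 24 did, with correlations from -0.09 to 0.12. With 2 libraries a hairpin the deviations mirror each other, so these pairs are not independent. The best match was taken over 2 libraries within a day and over 4 between days of the control. The 2 counts therefore have unlike chance rates and cannot be set against each other. This is a hint from the data and not from the design, and the libraries are taken to share only a number.

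Depth limited Itga4, Itga9 and Itgb6, which were near the floor of 3 reads per library, and the log2 changes of genes with few reads are understated.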
